A study of Mus musculus with 6 samples.

Results

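Serpins, Kazal-type inhibitors, cystatins and WAP-domain proteins, the main families of small proteins that hold tissue proteases in check, were followed across colonic tumors of mice whose glucocorticoid receptor is deficient in dimerization and of mice with the wildtype receptor. The genes were the protein-coding entries of the count table named Serpin, Spink or Wfdc, or Cst followed by a digit, together with Csta1, Cstb and Slpi. This took 60 of the 24797 genes in the table, 39 serpins, 6 Kazal-type, 5 cystatin and 10 WAP-type genes. The rule itself reads gene names and no measured value, but the families were picked with earlier results of these data known.

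Polyadenylated RNA was sequenced from 3 GRdim and 3 GRwt tumor samples. GRdim mice carry a glucocorticoid receptor, the nuclear receptor for corticosterone, that is deficient in dimerization, and GRwt mice carry the wildtype receptor. Both groups received AOM/DSS, the carcinogen azoxymethane with the colitis-inducing polymer dextran sulfate sodium, so every sample is a tumor grown in a colon that had been injured and inflamed. The labels give no age, sex or strain background. They do not say whether each tumor came from another animal, so the p-values refer to the spread among the sequenced samples, which may partly be technical.

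A serpin inhibits a serine protease by offering a loop as bait; the protease cuts it and is trapped in a covalent complex. Kazal-type and WAP-type proteins are small, disulfide-bonded domains that plug the active site of trypsin-like, kallikrein-like or elastase-like enzymes. Cystatins do the same to papain-like cysteine proteases such as the lysosomal cathepsins. In the colon these inhibitors meet neutrophil proteases, plasminogen activators, mast cell proteases and luminal enzymes, and some members of the families have lost inhibition and act as hormone carriers or chaperones.

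Nr3c1, the receptor gene, averaged 59.6 ± 18.1 CPM in GRdim and 55.3 ± 10.5 CPM in GRwt (SD, n = 3 each), and a count per gene does not show which receptor allele a library carries. The libraries held 21132981 to 36222351 counts. In this bulk tissue, fewer cells of a type and less RNA per cell cannot be told apart. GRdim replicate 1 and GRwt replicate 3 have an additional T in their library names and stood apart, with Rn18s-rs5, a ribosomal RNA gene, at 2.05% and 2.51% of counts, against 0.0466% to 0.0725% in the other 4 libraries. The names of GRdim replicates 1 and 3 hold the same number, and whether they share an animal is not stated. GRdim replicate 2 was the library with the Y-linked gene Ddx3y at 59.5 CPM and Xist at 0.255 CPM, where the other 5 held Ddx3y at no more than 0.763 CPM. All 12 markers of colonic epithelium were detected in every library, summing to 16250 to 37698 CPM in GRdim and 26321 to 33626 CPM in GRwt. The 10 smooth muscle markers summed to 3023, 1361 and 7002 CPM in GRdim replicates 1, 2 and 3, against 1418 to 1691 CPM in GRwt. The 18 squamous epithelium markers summed to 206, 283 and 1253 CPM in those GRdim replicates, against 237 to 450 CPM in GRwt. Levels in CPM are counts relative to the library size after TMM normalization, gene coordinates are on GRCm39, and values run in the order of replicates 1, 2 and 3 of a genotype.

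Of the 60 genes, 43 passed the filter on low counts and were tested for a difference between genotypes with edgeR's quasi-likelihood test over 18756 genes. None of the 43 had a Benjamini-Hochberg adjusted p under 0.05, and 0% of all tested genes did. At an unadjusted p under 0.05 there were 4 lower members, Spink6, Serpine2 and Serpinb9b among them, against a background of 1.09% of all tested genes, and 0 higher members, against 1.79%. DESeq2, run as the other tool, called 33 genes and among them Spink6 and Serpine2, both lower in GRdim, where its calls were 0.132% of genes lower and 0.0574% higher. Leaving out a GRdim library gave DESeq2 145, 145 and 18 calls for replicates 1, 2 and 3, and leaving out a GRwt library gave 5, 16 and 68.

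Over the 43 tested members the log2 fold change, GRdim minus GRwt throughout, had a median of -0.17 with quartiles of -0.55 and 0.22. The median over all tested genes was 0.00, with quartiles of -0.15 and 0.20. There were 28 members with a value below 0 and 15 above, while 49.4% of all tested genes lay below 0. Of the tested members 34 reached the filter's cutoff in all 6 libraries, while 7 reached it in all 3 GRwt libraries but not in all GRdim libraries, among them Spink6 and Serpinb9b. Spink6 and Serpinb9b reached it in 0 GRdim libraries and so were tested because they were higher in GRwt. Serpina1a, also among the 7, reached it in 2 GRdim libraries and had a log2 fold change of 0.08. The counts of members below and above 0 describe the genes that passed and carry no test.

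**Figure D1:**
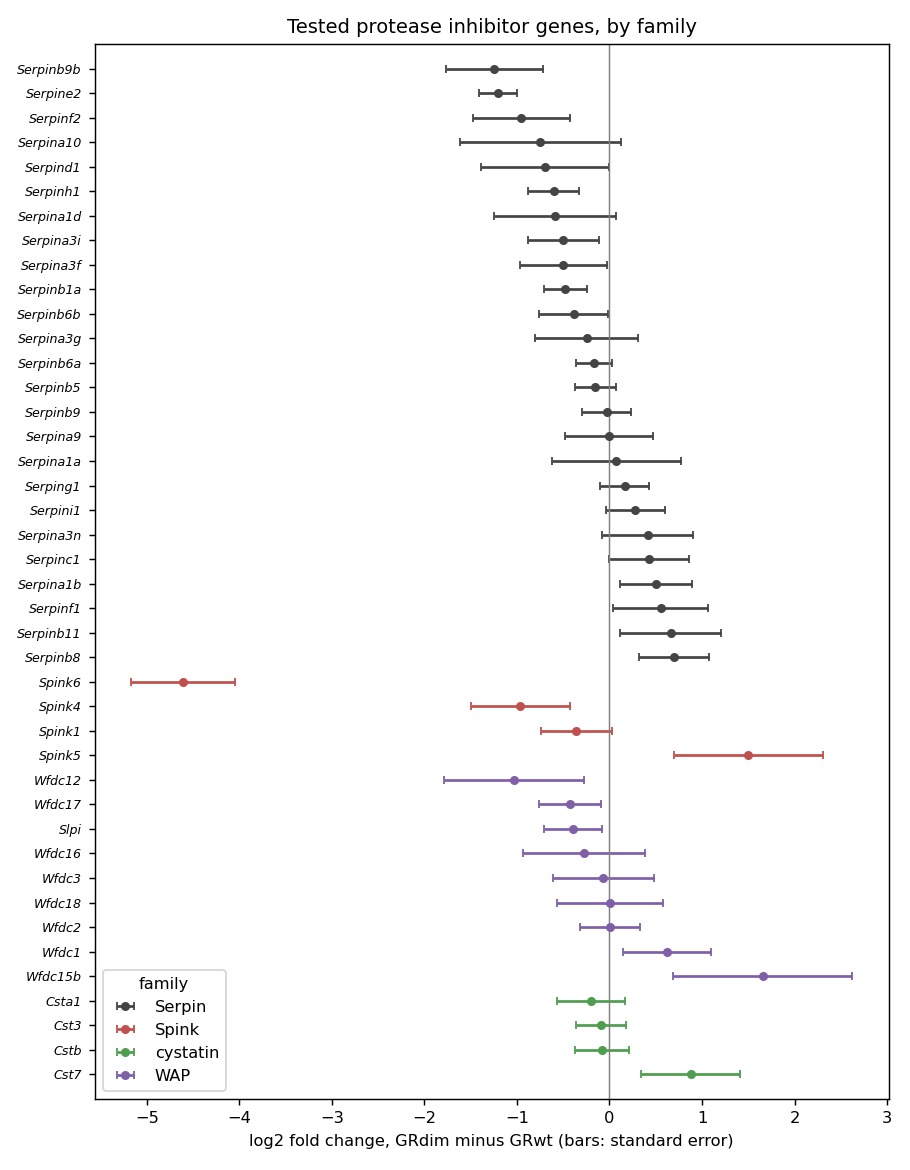
Log2 fold change with its standard error for tested members, GRdim minus GRwt, grouped by family. Spink6 lies at -4.61, apart from all others, and most serpins, cystatins and WAP-type genes lie within 1 of 0.

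Promoter sequences are shown for 3 serpins: Serpine2 and Serpinb9b, which were lower in every GRdim library, and Serpina3n, a gene known to be induced by glucocorticoids. Each runs from 250 bases before the start of the gene to 50 after it, from RefSeq on GRCm38.p6, and capitals mark the hexamer AGAACA, a single arm of the palindrome bound by the receptor dimer.
Serpine2, chr1:79858616-79858915, minus strand: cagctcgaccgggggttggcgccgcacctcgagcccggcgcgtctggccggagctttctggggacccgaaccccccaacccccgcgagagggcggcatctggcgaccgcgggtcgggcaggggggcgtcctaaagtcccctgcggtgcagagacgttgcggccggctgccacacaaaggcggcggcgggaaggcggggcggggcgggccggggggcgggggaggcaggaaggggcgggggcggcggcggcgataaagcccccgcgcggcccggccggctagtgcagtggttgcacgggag
Serpinb9b, chr13:33027164-33027463, plus strand: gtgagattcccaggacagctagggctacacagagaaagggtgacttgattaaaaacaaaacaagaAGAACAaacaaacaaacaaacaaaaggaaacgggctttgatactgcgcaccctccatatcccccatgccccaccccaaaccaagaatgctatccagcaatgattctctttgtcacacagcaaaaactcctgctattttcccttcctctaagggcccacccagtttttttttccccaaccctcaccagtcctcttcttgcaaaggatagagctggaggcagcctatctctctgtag
Serpina3n, chr12:104406458-104406757, plus strand: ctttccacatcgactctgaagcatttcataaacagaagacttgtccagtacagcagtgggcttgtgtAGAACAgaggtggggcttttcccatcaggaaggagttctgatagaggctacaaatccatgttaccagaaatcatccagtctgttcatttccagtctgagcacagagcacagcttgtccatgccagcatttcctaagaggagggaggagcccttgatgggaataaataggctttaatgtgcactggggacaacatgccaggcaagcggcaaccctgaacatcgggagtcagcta
The Serpine2 window is 77.7% G and C and holds no match, whereas Serpinb9b and Serpina3n, at 46.7% and 48.7%, hold 1 each, 185 to 180 and 183 to 178 bases before the start. The full palindrome, AGAACA and its reverse complement TGTTCT with any 3 bases between them, was found in 0 of the 48 promoter windows of the 43 members with an entry and in 0.00913% of all 32851 windows. On either strand AGAACA was found in 37.5% of the members' windows and 19.0% of all windows, with the near-copies Serpina1a to Serpina1e each counted among the members. The AP-1 motif TGANTCA, searched on both strands, was found in 22.9% of the members' windows and 7.81% of all. Here too the near-copies Serpina1a to Serpina1d were each counted among the members.

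Spink6 had the smallest p-value of the 18756 tested genes, but reached the filter's cutoff in 3 GRwt and 0 GRdim libraries. It was therefore tested through the genotype in which it was higher, and nothing is read from that rank. Spink6 encodes a Kazal-type protein known in human skin as an inhibitor of kallikrein-related peptidases. The gene (ENSMUSG00000055095, chromosome 18, 44204460 to 44216678, plus strand, GRCm39) had 2, 2 and 4 counts in GRdim replicates 1, 2 and 3, against 61, 62 and 73 counts in GRwt replicates 1, 2 and 3. This was 0.0749, 0.0567 and 0.147 CPM in GRdim libraries and 1.82, 3.15 and 2.02 CPM in GRwt libraries. The genotypes did not overlap, and the 3 GRdim libraries lay near or below the level of 3 counts. The 8 summed GRdim counts against 196 in GRwt gave a depth-adjusted ratio 24.4-fold lower, with an exact 95% counting interval of 12.2 to 57.4. That interval covers counting error only and leaves out the spread among libraries. The log2 fold change was -4.61 with a standard error of 0.57 (edgeR adjusted p = 0.518). DESeq2 gave -4.69 (adjusted p = 2.28e-06), and it called the gene with each library left out in turn, with the T as a covariate and on the 4 libraries without the T. Between the libraries with the T the difference was -3.79, and among the 4 others -3.97, on a log2 scale with 2 counts added. With GRdim replicates 1 and 3 summed as 1 sample the edgeR log2 fold change was -4.69. No other gene in the table overlaps it.

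Its tested neighbors on chromosome 18 overlapped between genotypes. Spink1, the trypsin inhibitor of pancreas and gut, stood at 158, 301 and 109 CPM in GRdim and 235, 322 and 171 CPM in GRwt replicates, and the genotypes overlapped (log2 fold change -0.36, standard error 0.38). Spink5, whose product LEKTI guards the outer layers of skin, stood at 1.42, 1.25 and 7.24 CPM in GRdim replicates and 0.357, 1.58 and 1.58 CPM in GRwt replicates. GRdim replicate 3 was high, and the other 5 libraries shared a range. The Spink5 log2 fold change of 1.5 (standard error 0.81) was 0.20 without that replicate. Spink11 had a count of 0 in all 6 libraries, and Spink10 had at most 11 counts in a library.

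Spink4, a secreted product of goblet cells, was the most abundant member per kilobase of exon, at 1919 CPM per kb over all libraries. It stood at 769, 901 and 190.4 CPM in GRdim and 1763, 1025 and 844 CPM in GRwt replicates. GRdim replicate 2 exceeded GRwt replicate 3, so the genotypes overlapped. Muc2, the mucin of the same cells, stood at 24954, 5939 and 1462 CPM in GRdim and 11963, 14469 and 14711 CPM in GRwt replicates. GRdim replicate 3 was lowest for both, although GRdim replicate 1 was highest for Muc2 and not for Spink4. The part of goblet cell content in the Spink4 values was not tested. Its log2 fold change of -0.96 (standard error 0.53) did not pass and was -0.54 without GRdim replicate 3 and -0.59 without GRwt replicate 1.

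**Figure D2:**
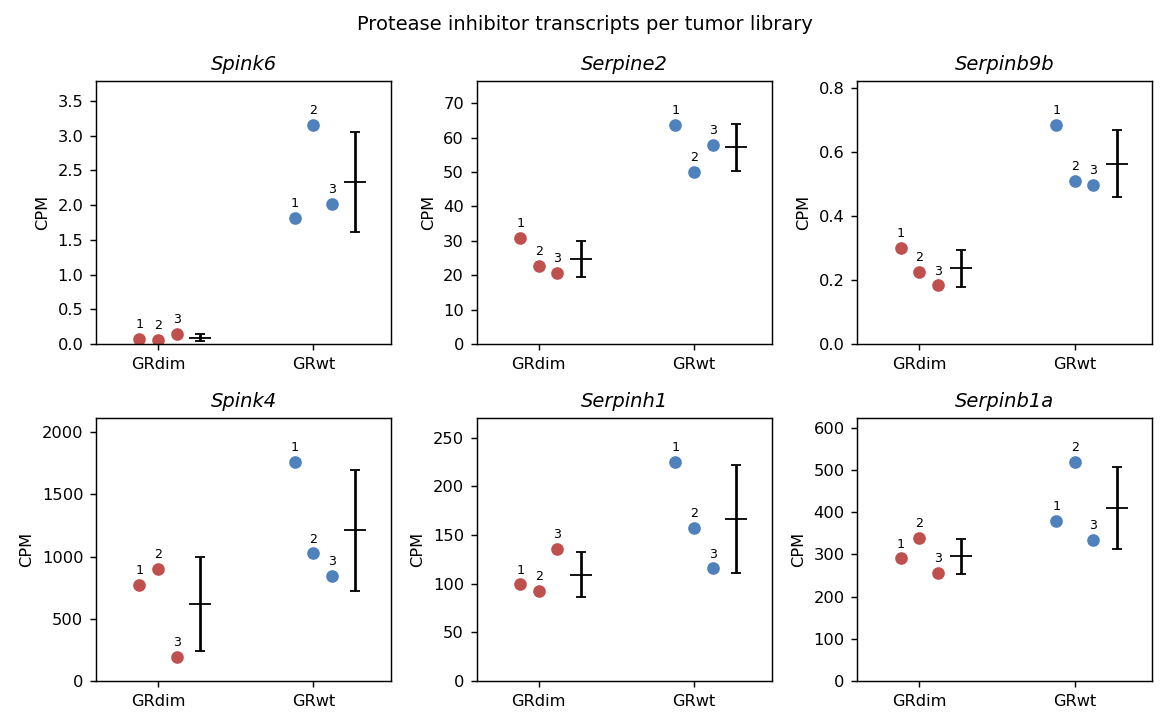
CPM per tumor library for 6 members, with GRdim libraries at the left and GRwt libraries at the right of each panel; numbers are replicates and bars are mean ± SD (n = 3 per group). The genotypes are apart for Spink6, Serpine2 and Serpinb9b and overlap for Spink4, Serpinh1 and Serpinb1a.

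Serpine2, which restrains thrombin and the activators of plasminogen, had a lower mean in GRdim tumors. Serpine2 encodes protease nexin-1, an inhibitor of thrombin, urokinase and tissue plasminogen activator (ENSMUSG00000026249, chromosome 1, 79771914 to 79838897, minus strand). It stood at 30.8, 22.7 and 20.8 CPM in GRdim replicates and 63.7, 49.9 and 57.8 CPM in GRwt replicates. Every GRdim library lay below every GRwt library. The means were 24.7 ± 5.34 CPM in GRdim and 57.1 ± 6.89 CPM in GRwt (SD, n = 3 each), 2.31 times lower in GRdim. Its log2 fold change was -1.21 with a standard error of 0.21, the fourth smallest p of the genes tested (edgeR adjusted p = 1.0). DESeq2 called it (adjusted p = 0.000812), and lost the call without GRwt replicate 1 (adjusted p = 0.130). The difference was -0.91 between the libraries with the T and -1.38 among the other 4, and with GRdim replicates 1 and 3 summed the log2 fold change was -1.25. The 10 fibroblast markers, all detected in every library, summed to 1035 to 2556 CPM in GRdim and 1626 to 2292 CPM in GRwt, and their part in the Serpine2 values was not tested.

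The enzymes and receptors of this system were described from a list of 19 plasminogen activation and coagulation genes, of which 16 were tested. None was called, 11 lay below 0 and 5 above, and the median log2 fold change was -0.26. Plaur, the urokinase receptor, was the list's 1 gene with an unadjusted p under 0.05, lower in GRdim, against 1.09% of all tested genes. It stood at 22.3, 36.7 and 21.9 CPM in GRdim and 47.6, 73.6 and 30.04 CPM in GRwt. GRdim replicate 2 lay above GRwt replicate 3, and the log2 fold change was -0.90 (standard error 0.34), with an edgeR adjusted p = 1.0. Tissue factor, encoded by F3, had a log2 fold change of -0.56 (standard error 0.25) and the clot-crosslinking subunit F13a1 of -0.93 (standard error 0.47), and neither passed. The urokinase gene Plau averaged 71.2 ± 7.48 CPM in GRdim and 95.6 ± 23.9 CPM in GRwt (SD, n = 3 each). The tissue activator gene Plat averaged 107 ± 33.4 CPM in GRdim and 125 ± 18.5 CPM in GRwt (SD, n = 3 each). For both activators the genotypes overlapped. Tfpi, the tissue factor pathway inhibitor, went the other way, at 13.9, 19.3 and 13.7 CPM in GRdim and 11.3, 13.2 and 12.8 CPM in GRwt. It was the 1 tested gene of the list with the genotypes apart, against 2.98% of all tested genes apart and higher and 3.57% apart and lower. Its log2 fold change of 0.33 (standard error 0.22) did not pass.

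Serpins of other clades have varied tasks. Serpinh1 encodes HSP47, a collagen chaperone of the endoplasmic reticulum with no inhibitory role, and stood at 99.2, 92.9 and 136 CPM in GRdim and 226, 157 and 116 CPM in GRwt. GRwt replicate 3 lay within the GRdim range, and the means were 109 ± 23.2 CPM in GRdim and 166 ± 55.5 CPM in GRwt (SD, n = 3 each). Its log2 fold change of -0.60 (standard error 0.27) missed an unadjusted p under 0.05 in edgeR and was -0.32 without GRwt replicate 1. Its client Col1a1, the collagen I chain, stood at 477, 159 and 370.3 CPM in GRdim and 639, 351 and 278 CPM in GRwt, highest in that same GRwt replicate. Within GRdim, replicate 1 was highest for Col1a1 and replicate 3 for Serpinh1, and a link between these genes was not tested. Serping1, the C1 inhibitor of the complement cascade, stood at 83.4, 54.4 and 112 CPM in GRdim and 86.9, 69.98 and 65.9 CPM in GRwt, and the genotypes overlapped. Serpinf1, or PEDF, was at 22.5 CPM in GRdim replicate 3 and at 5.36 to 11 CPM in the other libraries. Serpinf2, the plasmin inhibitor, had a log2 fold change of -0.95 (standard error 0.52) at a mean of 1.10 CPM. The brain inhibitor of tissue plasminogen activator Serpini1 had a log2 fold change of 0.28 (standard error 0.32), the antithrombin gene Serpinc1 of 0.42 (standard error 0.43) and heparin cofactor II, Serpind1, of -0.70 (standard error 0.69). Reads of Serpinc1 and Serpind1 cannot be told from those of the more abundant Zbtb37 and Pi4ka, which overlap them on the opposite strand, unless strand was used in counting.

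**Figure D3:**
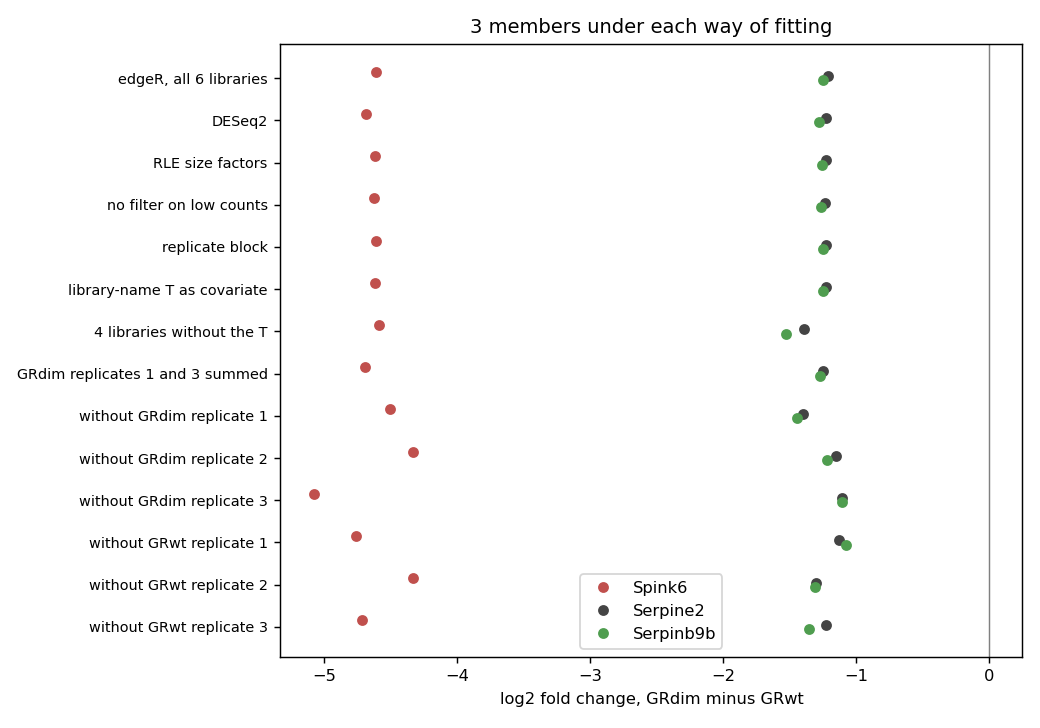
Log2 fold change, GRdim minus GRwt, of Spink6, Serpine2 and Serpinb9b (horizontal axis) under edgeR with all 6 libraries and each alternative named on the vertical axis, a point for each gene and setting. Points of all 3 genes lie below 0 in the settings drawn, and Spink6 lies apart from the others in each.

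Intracellular clade B serpins, which guard cells against their own or their neighbors' granule proteases, lie in groups on chromosomes 13 and 1. The chromosome 13 group (33026075 to 34186777) holds 7 genes, of which 5 were tested. These 5 had log2 fold changes below 0, with a median of -0.39. Serpinb1a, an inhibitor of neutrophil elastase and cathepsin G, stood at 291, 339 and 257 CPM in GRdim and 379, 520.5 and 334 CPM in GRwt. GRwt replicate 3 lay just below GRdim replicate 2, and the means were 296 ± 41.3 CPM in GRdim and 411 ± 97.4 CPM in GRwt (SD, n = 3 each). The log2 fold change was -0.48 (standard error 0.23), not past either threshold in edgeR, and -0.27 without GRwt replicate 2. Of the neutrophil markers, 9 were tested, 9 lay below 0 and 6 were lower at an unadjusted p under 0.05, where 49.4% of all tested genes lay below 0 and 1.09% were lower at that p. The 10 in the table summed to 114 to 194 CPM in GRdim and 160.1 to 310.4 CPM in GRwt. Their part in the Serpinb1a values was not tested.

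Serpinb9b, a mouse relative of the granzyme B inhibitor Serpinb9, had 8, 8 and 5 counts in GRdim against 23, 10 and 18 counts in GRwt (ENSMUSG00000021403, chromosome 13, 33211399 to 33225867, plus strand). Scaled, it stood at 0.299, 0.227 and 0.184 CPM in GRdim and 0.684, 0.509 and 0.498 CPM in GRwt, and every GRdim library lay below every GRwt library. The log2 fold change was -1.24 (standard error 0.52), with an edgeR adjusted p = 1.0. The ratio of summed counts was 2.42-fold lower in GRdim, with an exact 95% counting interval of 1.43 to 4.24. This interval covers counting error only, leaves out the spread among libraries and is no test of genotype. With any library left out, its unadjusted p in edgeR no longer lay under 0.05. Without the filter on low counts edgeR gave an unadjusted p of 0.068, and with replicate numbers as a block 0.11. In 2 of the 12 other edgeR settings it stayed under 0.05, and DESeq2 gave an unadjusted p of 0.099. Serpinb9b reached the filter's cutoff in 3 GRwt and 0 GRdim libraries, so it was tested through the genotype in which it was higher. Serpinb9 itself stood at 11.5, 9.35 and 10.9 CPM in GRdim and 10.9, 7.83 and 13.7 CPM in GRwt and overlapped between genotypes. The broadly expressed Serpinb6a stood at 281, 294 and 299 CPM in GRdim and 294, 391 and 297 CPM in GRwt, a narrow range in 5 libraries with GRwt replicate 2 above it, and Ripk1 and Nqo2 overlap it on the other strand. Serpinb6b had a log2 fold change of -0.39 (standard error 0.37). Serpinb1b had 1, 1 and 0 counts in GRdim and 6, 3 and 7 counts in GRwt, and Serpinb1c had 0 to 16 counts a library. Neither was tested, and reads may be shared among the near-identical Serpinb1a, Serpinb1b and Serpinb1c.

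On chromosome 1 (106788903 to 107538214) 8 clade B genes lie together, of which 3 were tested. Serpinb5, or maspin, an epithelial serpin without known protease inhibition, stood at 91.2, 100.11 and 141 CPM in GRdim and 110.2, 148 and 111 CPM in GRwt and overlapped. Serpinb8, an inhibitor of furin-type enzymes, stood at 2.06, 2.04 and 3.16 CPM in GRdim and 1.19, 1.83 and 1.46 CPM in GRwt. It was the 1 tested member with every GRdim library above every GRwt library, where 2.98% of all tested genes did the same, and its log2 fold change was 0.70 (standard error 0.38), which did not pass. Of the tested members, 5 had every GRdim library below every GRwt library, against 3.57% of all tested genes. These were Spink6, Serpine2, Serpinb9b, Serpina3i and Serpina3f. Spink6 and Serpinb9b reached the filter's cutoff in 3 GRwt and 0 GRdim libraries and so were tested through the genotype in which they were higher, and nothing is read from the count against that share. Among members that did not pass the filter, Serpina3c and Cst6 had every GRdim library above every GRwt library. For Serpinb1b, also not tested, every GRdim library lay below every GRwt library. Serpinb11 ranged from 2.32 to 11.4 CPM in GRdim and 3.92 to 7.08 CPM in GRwt.

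The remaining chromosome 1 genes were seen in a single library or nearly so. Serpinb3a, a mouse relative of the human squamous cell carcinoma antigens, had 0, 0 and 46 counts in GRdim and 0 in each GRwt library. Serpinb3b had 1, 0 and 26 counts in GRdim and 0 in each GRwt library. For Serpinb3c the counts were 0, 0 and 16 in GRdim and 0 in each GRwt library, and for Serpinb7 they were 0, 0 and 2 against 0. GRdim replicate 3 held nearly all their reads, and none of these genes passed the filter on low counts. Serpinb3b and Serpinb3c overlap in the annotation and their reads are uncertain. Serpinb2, or PAI-2, had at most 2 counts in any library.

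**Figure D4:**
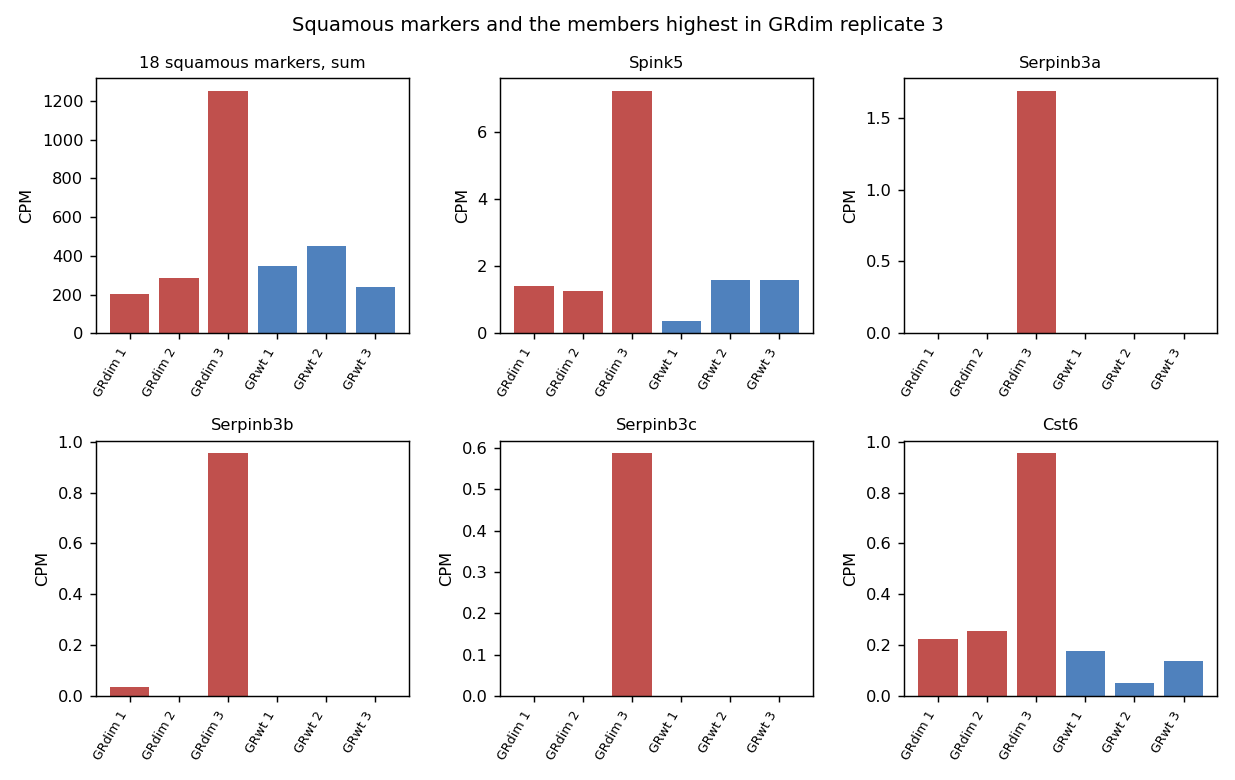
CPM per library (bars) for the sum of 18 squamous markers and for Spink5, Serpinb3a, Serpinb3b, Serpinb3c and Cst6, with the GRdim libraries at the left and the GRwt libraries at the right of each panel. GRdim replicate 3 has the tallest bar in each panel, at 1253 CPM for the marker sum.

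GRdim replicate 3 was also the highest library for the squamous keratins Krt5 and Krt1. Krt5, a keratin of basal squamous cells, stood at 4.90, 0.283 and 115 CPM in GRdim and 0.298, 0.153 and 0.166 CPM in GRwt. Krt1, of the upper squamous layers, stood at 0.187, 0.0850 and 91.4 CPM in GRdim and 0.268, 0 and 0 CPM in GRwt. In GRdim replicate 3, 18 of the 18 squamous markers were detected, against 12 to 14 in each other library. Its smooth muscle sum was the highest of the 6 libraries. Of the 10 smooth muscle markers, 9 were higher in GRdim at an unadjusted p under 0.05 in edgeR, against 1.79% of all tested genes. The genotypes overlapped for each of them, and the sum in GRdim replicate 2 was 1361 CPM, below the 1418 to 1691 CPM of GRwt. Cst6, cystatin M of the epidermis, had 6, 9 and 26 counts in GRdim and 6, 1 and 5 counts in GRwt. Spink5 was also highest in GRdim replicate 3. The part of squamous tissue in these values was not tested. These genes were grouped after their values were seen.

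Clade A serpins, mostly secreted liver-type inhibitors and acute-phase proteins, lie in 1 stretch of chromosome 12 (103581045 to 104380588). It holds 14 of the genes, 9 tested, 6 below 0 and 3 above, with a median log2 fold change of -0.25. Serpina3n, an inhibitor related to human antichymotrypsin and an acute-phase and glucocorticoid-induced gene (104372988 to 104380588, plus strand), stood at 18.2, 8.22 and 34.1 CPM in GRdim and 22.5, 10.9 and 11.9 CPM in GRwt. The genotypes overlapped and GRdim replicate 3 was highest. The log2 fold change was 0.41 (standard error 0.49), which did not pass, and -0.20 without that library. Serpina3i stood at 0.936, 1.19 and 0.992 CPM in GRdim and 1.22, 1.58 and 1.63 CPM in GRwt, with the genotypes apart by less than 0.1 CPM, and its log2 fold change was -0.50 (standard error 0.38), which did not pass. Serpina3f stood at 0.487, 0.623 and 0.367 CPM in GRdim and 0.774, 0.661 and 0.663 CPM in GRwt, with a log2 fold change of -0.50 (standard error 0.47). Serpina3g, Serpina9, Serpina1a, Serpina1b, Serpina1d and Serpina10 had log2 fold changes between -0.75 and 0.50, and the genotypes overlapped for each. Serpina3c had 9, 2 and 14 counts in GRdim and 0, 0 and 1 in GRwt. Serpina3k had 21 counts in GRdim replicate 2, 10 in GRwt replicate 2 and 0 in the other libraries. The near-copies Serpina1a to Serpina1e, and Serpina3k with Serpina3m, overlap or resemble each other closely, so their counts are uncertain. Serpina1c, Serpina1e, Serpina3m and, on chromosome 3, Serpini2 were not tested and had at most 17 counts in a library.

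**Figure D5:**
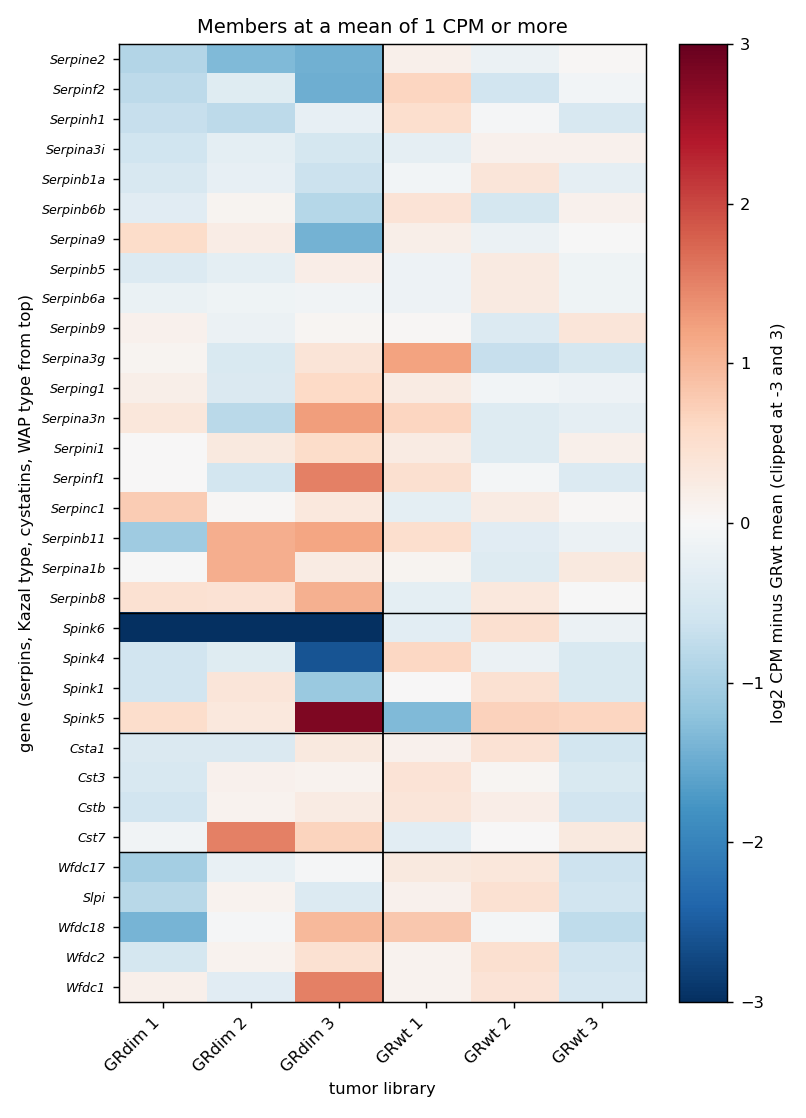
Colour shows log2 CPM (2 counts added) minus the GRwt mean, limited to the range of -3 to 3, for tested members with a mean of at least 1 CPM (rows, by family) in each library, GRdim in the left columns and GRwt in the right. Spink6 is low in the 3 GRdim columns, and Spink5, Serpinf1 and Wfdc1 are highest in GRdim replicate 3.

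The 4 tested cystatins overlapped between genotypes. Cst3, cystatin C, the main secreted inhibitor of cathepsins, stood at 172, 263 and 259 CPM in GRdim and 319, 248 and 174 CPM in GRwt. Cstb, cystatin B of the cytosol, stood at 48.97, 79.3 and 87.4 CPM in GRdim and 95.2, 83.6 and 49.7 CPM in GRwt. For both, GRdim replicate 1 and GRwt replicate 3 were the lowest libraries and GRwt replicate 1 the highest. These low libraries are those with the T in their names, and its part in the values was not tested. Csta1, a stefin A relative, stood at 3.33, 3.34 and 5.55 CPM in GRdim and 4.94, 6.05 and 3.07 CPM in GRwt. The log2 fold changes were -0.09 (standard error 0.27) for Cst3, -0.08 (standard error 0.29) for Cstb and -0.20 (standard error 0.37) for Csta1, and each turned above 0 with some library left out. Cst7, cystatin F of immune cells, stood at 0.674, 2.24 and 1.21 CPM in GRdim and 0.595, 0.712 and 0.940 CPM in GRwt, with a log2 fold change of 0.88 (standard error 0.53) that did not pass.

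Cathepsins, the targets of cystatins, were described from a list of 11 lysosomal cysteine protease genes, each tested on its own. Of these, 6 lay below 0 and 5 above, with none called and a median of -0.06. Ctsc, which activates granule serine proteases, stood at 104, 87.05 and 91.3 CPM in GRdim and 135, 116 and 130.2 CPM in GRwt. Every GRdim library lay below every GRwt library, and the log2 fold change was -0.43 (standard error 0.16), with an edgeR adjusted p = 1.0. Next by p were the log2 fold changes of Ctsz at -0.36 (standard error 0.21) and Ctsf at 0.40 (standard error 0.27), which did not pass either threshold.

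WAP-type genes lie mainly on chromosome 2 (164031151 to 164587851), where 6 were tested, 4 below 0 and 2 above. Slpi, the secretory leukocyte protease inhibitor that protects mucosa from neutrophil elastase (164195990 to 164231015, minus strand), stood at 40.8, 78.5 and 54.3 CPM in GRdim and 79.2, 100.04 and 48.5 CPM in GRwt. The genotypes overlapped, and the log2 fold change was -0.39 (standard error 0.31), which did not pass. Wfdc2, or HE4, stood at 92.7, 142 and 183 CPM in GRdim and 142, 185 and 88.8 CPM in GRwt, with a log2 fold change of 0.01 (standard error 0.32). The lowest libraries for both Slpi and Wfdc2 were GRdim replicate 1 and GRwt replicate 3, the libraries with the T. Wfdc18, on chromosome 11, stood at 122, 313 and 629.9 CPM in GRdim and 564, 309.6 and 188 CPM in GRwt, a spread within each genotype that left the log2 fold change at 0.00 (standard error 0.57). Its neighbor Wfdc17 stood at 9.10, 15.95 and 18.3 CPM in GRdim and 22.7, 23.5 and 12.1 CPM in GRwt, and overlapped. Wfdc1, or ps20, a protein of smooth muscle and stroma, was at 28.2 CPM in GRdim replicate 3, the library with the highest smooth muscle sum, and at 6.91 to 13.1 CPM in the other 5. The low-count Wfdc15b stood at 0.299, 1.96 and 1.29 CPM in GRdim and 0.893, 0.0509 and 0.138 CPM in GRwt, with a log2 fold change of 1.65 (standard error 0.97), and Wfdc12, Wfdc16 and Wfdc3 had log2 fold changes between -1.03 and -0.07. Wfdc21 was not tested, with 2 to 18 counts a library.

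The remaining proteases that these inhibitors meet were 13 neutrophil, mast cell and lymphocyte serine protease genes, 10 of them tested, 3 below 0 and 7 above. None was called, and the median log2 fold change was 0.17. Tpsb2, a mast cell tryptase, stood at 4.68, 41.2 and 55.8 CPM in GRdim and 8.42, 3.76 and 8.82 CPM in GRwt, low in GRdim replicate 1 and high in the other GRdim replicates (log2 fold change 2.27, standard error 0.75, edgeR adjusted p = 1.0). Cma1, mast cell chymase, stood at 8.84, 18.7 and 29.8 CPM in GRdim and 12.8, 4.98 and 7.41 CPM in GRwt, with the genotypes overlapping (log2 fold change 1.18, standard error 0.48, edgeR adjusted p = 1.0). Mcpt4, another chymase, had a log2 fold change of 0.77 (standard error 0.39).

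Trypsin-like proteases of epithelium and kallikreins numbered 22, of which 17 were tested, 9 below 0 and 8 above, with none called and a median of -0.12. Prss22 stood at 9.32, 19.98 and 21.2 CPM in GRdim and 46.9, 33.1 and 19.8 CPM in GRwt, with an overlap at GRwt replicate 3 (log2 fold change -0.98, standard error 0.39, edgeR adjusted p = 1.0). Prss27 had a log2 fold change of -0.98 (standard error 0.44) and Hpn, hepsin, of -0.52 (standard error 0.29). Of the other protease inhibitors listed, 24 of 29 were tested, 11 below 0 and 13 above, with a median of 0.00. Smoc1, a matrix protein with a follistatin-like domain, stood at 19.8, 17.9 and 12.7 CPM in GRdim and 26.8, 30.2 and 26.2 CPM in GRwt. Each GRdim library was below each GRwt library (log2 fold change -0.72, standard error 0.21, edgeR adjusted p = 1.0). Reck, a membrane inhibitor of matrix metalloproteinases, stood at 5.24, 3.83 and 6.76 CPM in GRdim and 2.80, 3.15 and 3.26 CPM in GRwt, each GRdim library above each GRwt library (log2 fold change 0.78, standard error 0.32, edgeR adjusted p = 1.0). Fst, follistatin, had a log2 fold change of -0.44 (standard error 0.25).

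Across the families, 17 of 26 tested serpins, 3 of 4 Kazal-type, 3 of 4 cystatin and 5 of 9 WAP-type genes had log2 fold changes below 0, with medians of -0.21, -0.66, -0.09 and -0.07. The libraries were uneven. Over the 43 tested members, the median log2 level relative to the GRwt mean was -0.42, -0.14 and -0.03 in GRdim and 0.16, -0.01 and -0.17 in GRwt. GRdim replicate 3 was the lowest library for 32.6% of the members, against 19.0% of all tested genes, and the highest for 20.9%, against 19.2%. GRdim replicate 1 was the highest for 4.65% of the members, against 18.9% of all tested genes. GRwt replicates 1 and 2 were the highest for 27.9% and 25.6% of the members, against 17.7% and 16.1% of all tested genes. By level per kilobase of exon, the most abundant members after Spink4 were Spink1 at 296, Wfdc18 at 291, Cst3 at 189, Serpinb1a at 153, Cstb at 123 and Wfdc2 at 122 CPM per kb, where Serpine2 stood at 4.94 and Spink6 at 1.34 CPM per kb.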

How the data were processed

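RNA of 3 GRdim and 3 GRwt colonic tumors was selected for polyadenylated transcripts and made into stranded libraries, per the labels' protocols. The authors deposited raw counts per gene. Per the submitters' processing notes, the tools included STAR 2.7.8a, featureCounts (Subread 1.5.0), Trim Galore and DESeq2 1.40.2, with the genome build GRCm39; the annotation release and the strand setting of counting are not given in the sources used here. Each column was assigned to its sample through the library name that the labels give.

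The counts were tested with edgeR 4.0.16 in R 4.3.3 (TMM, filterByExpr by genotype with a minimum of 10 counts, robust quasi-likelihood F test, genotype as the only term, Benjamini-Hochberg over 18756 genes, threshold 0.05). The common biological coefficient of variation was 0.330. The standard error is the log2 fold change over the square root of F. DESeq2 1.42.0 and other settings were alternatives, and the code was tested on simulated counts. Values in every library are given for members with an unadjusted p under 0.05 or with genotypes apart at a mean of at least 1 CPM. They are also given for the 3 of each family with the highest mean CPM, and for Serpina3n and Slpi. From each list of other protease-system genes the 3 of smallest p are named, some with a log2 fold change and standard error alone. Serping1, Serpinb5, Serpinb9 and other genes outside this rule were chosen after their values were seen. The members and lists were chosen with earlier results of these data known. The values of 1 member are not reported here. Exon lengths came from GENCODE M21. Counting intervals cover counting error only.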

Additional observations from a re-analysis of the deposited data

How the results depend on the processing

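edgeR called 0 genes in each of its settings, with 541 genes at an unadjusted p under 0.05 in the reported fit. DESeq2 called 33 genes, 54 with the T as covariate, 142 on the 4 libraries without the T, and 145, 145 and 18 without GRdim replicates 1, 2 and 3 and 5, 16 and 68 without GRwt replicates 1, 2 and 3; all DESeq2 refits were chosen after seeing the data. Members called were 0 in each edgeR fit, 2 by DESeq2, 3 with the T as covariate, 3 on the 4 libraries and 1 to 3 with a library left out. Members lower at an unadjusted p under 0.05 numbered 4, 7 with the T as covariate in edgeR, 2 to 5 with a library left out, and 6 in DESeq2. Higher members numbered 0, 3 in DESeq2, 3 without the filter, 1 on the 4 libraries without the T, 0 to 2 with a library left out in edgeR and 0 to 5 in DESeq2, and in DESeq2 1 with the T as covariate and 3 on the 4 libraries. The members' median stayed between -0.33 and -0.10.

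Of 399 values of named genes, 343 kept their direction and side of the threshold, 20 passed it under DESeq2 and 36 changed sign. With a library left out in edgeR, log2 fold changes ran from -0.32 to 0.13 for Cst3, -0.49 to 0.022 for Csta1, -0.34 to 0.13 for Cstb, -0.20 to 0.82 for Serpina3n, -0.71 to 0.51 for Wfdc18 and -0.25 to 0.27 for Wfdc2. In DESeq2, Cst3 was 0.077 without GRdim replicate 1 and 0.12 without GRwt replicate 1, Cstb was 0.13 and 0.10 without these, Csta1 was 0.0058 without GRwt replicate 2 and Serpina3n was -0.22 without GRdim replicate 3. Wfdc18 was -0.0068 in DESeq2, -0.0050 with RLE size factors, -0.0071 without the filter, -0.12 with the replicate block, -0.13 with the T as covariate and -0.047 with GRdim replicates 1 and 3 summed, and in DESeq2 -0.72, -0.10 and -0.31 without GRdim replicate 3, GRwt replicate 2 and GRwt replicate 3 and -0.15 with the T as covariate. Wfdc2 was -0.0063 in DESeq2, -0.0032 with RLE size factors, -0.0067 without the filter and -0.0079 on the 4 libraries without the T, and in DESeq2 -0.020, -0.26 and -0.24 without GRdim replicate 2, GRdim replicate 3 and GRwt replicate 3 and -0.0053 on the 4 libraries. The cause of these changes was not tested.

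Deviations from the genotype mean, correlated across genes, gave -0.39, 0.03 and -0.43 between same-numbered samples. The libraries with the T, GRdim replicate 1 and GRwt replicate 3, gave 0.45. A pair without the T, GRdim replicate 3 and GRwt replicate 1, gave 0.40. With 3 samples a genotype, these values cannot show whether the samples were paired. With the replicate block edgeR called 0 genes and the members' median was -0.19. Genes near 3 counts a library, such as Spink6 in GRdim, are limited by depth.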
